A study of Mus musculus with 2 samples.

Results

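Apoe, Trem2, Spp1, Gpnmb, Fabp5, Lpl, Abca1, Cd36, Plin2 and Lgals3 are often read together as a signature of lipid-handling macrophages. Most of them act in lipid uptake, transport, storage or efflux. These 10 genes were taken by symbol from the 31053 genes of a single-cell RNA table of tumor-associated neutrophils (TANs), and all 10 were present in it. The rule was the name alone, with no threshold on a measured value.

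The tumors came from LLC, a mouse lung carcinoma line, inoculated under the skin of C57BL/6 mice (C57BL/6 J in the study's methods) aged 8 to 12 weeks. One group, Smad3-WT, was Smad3+/+, and the other, Smad3-KO, was Smad3-/- in every cell of the mouse, by an allele in which exon 8 is deleted and exon 7 disrupted, while the inoculated carcinoma cells were the same line in both. CD11b+Ly6G+ cells were sorted from 8 tumors per group, the tumors were pooled, and each pool gave 1 library with a 10x 5′ kit. Each genotype is therefore 1 library with no replicate, no test between genotypes was possible, and every interval below is a 95% interval of counting error only.

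After the quality filter the Smad3-WT library held 3520 cells with 12176201 UMIs (unique molecular identifiers, 1 per captured RNA molecule) and the Smad3-KO library 2433 cells with 4146792 UMIs. Xist, which is expressed from an inactive X chromosome, stood at 0.657 CPM (counts-per-million, the UMIs of a gene scaled to the total UMIs of the same cells) in the Smad3-WT library and at 471 in the Smad3-KO library, so the sex of the mice and the genotype cannot be told apart. Smad3 itself was at 14.6 CPM in the Smad3-WT and 77.4 in the Smad3-KO library. The kit tags the start of the transcript and not the deleted exon, so this checks nothing about the genotype. Both libraries shared 73 barcodes, of which 24 were kept in the Smad3-WT and 46 in the Smad3-KO library, and 20 of the latter lay among the 37 Smad3-KO cells that clustered with carcinoma cells.

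Macrophages that clear dying cells take up lipoproteins, phospholipids and cholesterol through surface receptors such as Trem2 and Cd36. The fatty acids are carried by binding proteins such as Fabp5 and stored in droplets coated by Plin2, and cholesterol is loaded by the transporter Abca1 onto apolipoproteins such as Apoe. In tumors and other damaged tissue, macrophages with this programme are also known for the glycoproteins Spp1 and Gpnmb and for galectin-3, encoded by Lgals3.

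The labels call the cells neutrophils, but the sorted cells held other types as well. The study filtered its cells by neutrophil markers before its own analysis, a step that was not applied here. Cells were clustered without the 10 genes and without 7 lists of other lipid genes, and the 14 clusters were named from marker genes. Neutrophil-like cells made up 1829 Smad3-WT and 1079 Smad3-KO cells in 5 clusters. Macrophage-like cells, a class that holds monocyte-like cells too, made up 1093 Smad3-WT and 121 Smad3-KO cells in 2 clusters. Cluster 2 was led by Ppbp, Vcan, Ccr2, Mmp12 and Arg1, and cluster 8 by the complement genes C1qa, C1qb and C1qc with Ccl8, Retnla and Folr2. Dendritic-like, T or NK-like, B cell-like, LLC carcinoma-like and fibroblast-like cells formed the rest.

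The name of the signature fitted the cell classes only in part. In the Smad3-WT library 6 of the 10 genes, Apoe, Trem2, Fabp5, Lpl, Cd36 and Lgals3, had their highest level in macrophage-like cells. Spp1 and Plin2 were highest in neutrophil-like cells, Gpnmb in carcinoma-like cells and Abca1 in fibroblast-like cells. In the Smad3-KO library 7 of 10 were highest in macrophage-like cells, while Spp1 was highest in neutrophil-like, Lpl in fibroblast-like and Cd36 in the 37 carcinoma-like cells. Without those 37 cells, Cd36 too was highest in macrophage-like cells and the number was 8. Their name is weakly held, with carcinoma markers at 304 CPM and fibroblast markers at 2998 CPM. In Smad3-WT carcinoma-like cells these were 1407 and 197 CPM. The median depths were 831 and 13152 UMIs.

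Several of these first places were not separated from the second. In the Smad3-WT library the intervals of the first 2 classes overlapped for Gpnmb (58.7 CPM in carcinoma-like and 47.4 in macrophage-like cells), for Abca1 (124 in fibroblast-like and 113 in macrophage-like cells) and for Lpl (113 in macrophage-like and 80.3 in fibroblast-like cells). In the Smad3-KO library they overlapped for Lpl and Cd36. For the other genes the highest class stood clear of the next by counting error. These are places of pooled classes, and single clusters could give another order, as for Smad3-WT Fabp5 and Smad3-KO Plin2 below.

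**Figure D1:**
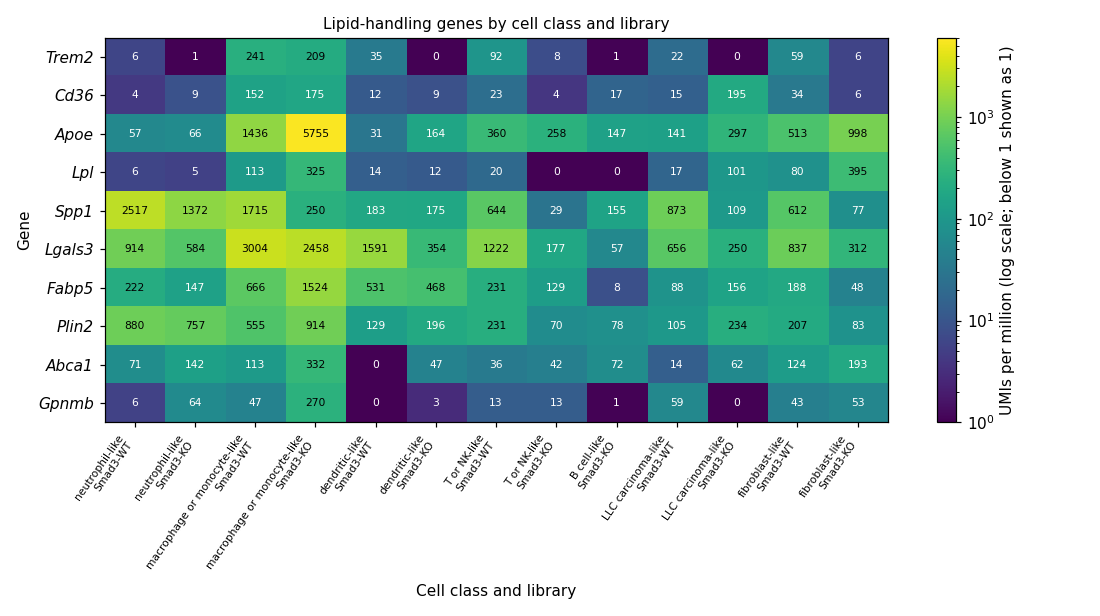
Levels of the 10 genes (rows) in each cell class of each library with 20 or more cells (columns), in CPM, printed in each box and coloured on a log scale. Apoe, Trem2, Lpl and Cd36 are low in neutrophil-like cells of both libraries, while Spp1 reaches 2517 in Smad3-WT neutrophil-like cells against 1715 in Smad3-WT macrophage-like cells.

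Counted per cell, the genes nevertheless marked the macrophage-like class. With each cell thinned to 500 UMIs, so that depth was equal, 30.4% of Smad3-WT and 40.5% of Smad3-KO macrophage-like cells held UMIs of 3 or more of the 10 genes. The same share was 7.93% and 4.45% in neutrophil-like cells and at most 7.69% in any other class. Unthinned, the shares were 83.4% and 71.1% in macrophage-like cells and 17.4% and 18.3% in neutrophil-like cells, with median depths of 3380 and 1967 UMIs against 741 and 1016 UMIs.

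Among the surface receptors, Trem2 (ENSMUSG00000023992, chromosome 17, 48346401 to 48354147, GRCm38) senses lipids and signals through Tyrobp. In macrophage-like cells it stood at 241 CPM in the Smad3-WT library (1097 UMIs, interval 227 to 255) and at 209 in the Smad3-KO library (61 UMIs, interval 160 to 268). The 2 levels could not be told apart, with a ratio of Smad3-KO over Smad3-WT of 0.867 (0.659 to 1.12). The UMIs were spread differently, however. They lay in 42.8% of Smad3-WT cells but in 16.5% of Smad3-KO cells, where 10 cells held 83.6% of them and a single cell held 22 of the 61. At equal depth of 500 UMIs the shares were 8.78% and 5.79%. Trem2 was close to absent from neutrophil-like cells, with 10 UMIs in 1829 Smad3-WT cells and 1 UMI in 1079 Smad3-KO cells.

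Cd36 (ENSMUSG00000002944, chromosome 5, 17781690 to 17888801), is a scavenger receptor for fatty acids and oxidized lipoproteins. Its level in macrophage-like cells was 152 CPM in the Smad3-WT (693 UMIs) and 175 in the Smad3-KO library (51 UMIs), and the interval of the ratio (1.15, 0.846 to 1.53) spanned 1. Its UMIs lay in 21.8% and 19.0% of cells, and in 5.76% and 9.09% at 500 UMIs a cell. In neutrophil-like cells it was 4.31 and 9.07 CPM, from 7 and 12 UMIs. The highest level of Cd36, in Smad3-KO carcinoma-like cells, rested on 25 UMIs in 8 of 37 cells, with 10 UMIs in a single cell. Of the 37 cells 20 had a barcode shared with the other library, and whether these held the Cd36 UMIs was not tested.

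Apoe (ENSMUSG00000002985, chromosome 7, 19696109 to 19699188), the apolipoprotein that accepts effluxed cholesterol, was higher in the Smad3-KO macrophage-like cells. It rested on 6543 UMIs or 1436 CPM in the Smad3-WT library (1401 to 1471) and on 1681 UMIs or 5755 CPM in the Smad3-KO library (5484 to 6037). The ratio was 4.01 (3.80 to 4.23), and it was 5.22 (4.75 to 5.73) within cluster 2 and 3.21 (3.003 to 3.43) within cluster 8. A larger share of the Smad3-KO cells also held an Apoe UMI, but the UMIs were unevenly spread. In the Smad3-KO library 10 of 121 cells held 58.7% of them and a single cell held 219 of the 1681. In the Smad3-WT library 10 of 1093 cells held 16.0%. Within cluster 8 the top 10 Smad3-KO cells held 80.8%, against 23.2% for Smad3-WT. After thinning, 55.4% of Smad3-KO macrophage-like cells held an Apoe UMI against 30.01% of Smad3-WT cells, beside 2.04% of Smad3-KO and 2.46% of Smad3-WT neutrophil-like cells.

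Lpl (ENSMUSG00000015568, chromosome 8, 68880491 to 68907448), the lipase that frees fatty acids from lipoproteins, was also higher in the Smad3-KO macrophage-like cells. It stood at 113 CPM (516 UMIs) in the Smad3-WT and 325 (95 UMIs) in the Smad3-KO library, which gave a ratio of 2.87 (2.28 to 3.58). In the Smad3-KO library 10 cells held 84.2% of these UMIs. Within either library cluster 8, the C1q cluster, was the higher of the 2 clusters for Lpl, at 199.7 against 47.5 CPM for Smad3-WT and 499 against 146 CPM for Smad3-KO. Fibroblast-like cells held it too, at 80.3 CPM in 47 Smad3-WT cells and 395 in 61 Smad3-KO cells.

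Spp1 (ENSMUSG00000029304, chromosome 5, 104435118 to 104441050), which encodes the secreted glycoprotein osteopontin, went the other way from Apoe. Macrophage-like cells held 7814 UMIs or 1715 CPM (1677 to 1753) in the Smad3-WT library and 73 UMIs or 249.9 CPM (196 to 314) in the Smad3-KO library. This ratio of 0.146 (0.114 to 0.183) was the lowest of the 10, and it was 0.127 (0.0939 to 0.169) in cluster 2 and 0.323 (0.208 to 0.480) in cluster 8. Cells with a Spp1 UMI made up 52.7% of Smad3-WT and 24.0% of Smad3-KO macrophage-like cells, and 29.0% and 10.7% after thinning. In the Smad3-WT library Spp1 separated the macrophage-like clusters, at 2622 CPM in cluster 2 and 521 in cluster 8.

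Lgals3 (ENSMUSG00000050335, chromosome 14, 47367751 to 47386160), encoding galectin-3, was found in most macrophage-like cells. It reached 3004 CPM in the Smad3-WT (13688 UMIs, in 96.3% of cells) and 2458 in the Smad3-KO library (718 UMIs, in 78.5% of cells). The ratio was 0.818 (0.758 to 0.882), below 1 by counting error, but it was 1.02 (0.908 to 1.15) in cluster 8 alone. Dendritic-like cells of the Smad3-WT library held it at 1591 and neutrophil-like cells at 914 CPM.

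Fabp5 (ENSMUSG00000027533, chromosome 3, 10012548 to 10016607) carries fatty acids inside the cell. In macrophage-like cells it was at 666 CPM in the Smad3-WT (3033 UMIs) and 1524 in the Smad3-KO library (445 UMIs), which gave a ratio of 2.29 (2.07 to 2.53). This result rested on few cells. In the Smad3-KO library a single cell held 89 of the 445 UMIs and 10 of 121 cells held 76.4%, and without the highest cell of each library the ratio was 1.98. It also fell short of 2 without the 10% deepest cells and in thinned cells. Dendritic-like cells, as a pooled class, had Fabp5 next to macrophage-like cells, at 531 CPM in the Smad3-WT and 468 in the Smad3-KO library. Their clusters differed, with cluster 12, led by Ccl22, at 1597 (1384 to 1835) and 921 CPM and cluster 10 at 86.6 and 177. In the Smad3-WT library the 30 cells of cluster 12 thus stood above macrophage-like clusters 2 and 8, at 717 and 599.

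Plin2 (ENSMUSG00000028494, chromosome 4, 86648386 to 86670060), the coat protein of lipid droplets, was at 555 CPM (533 to 577) in Smad3-WT and 914 (808 to 1031) in Smad3-KO macrophage-like cells. The ratio was 1.65 (1.45 to 1.87), under 2-fold, and it reached 2.56 (2.07 to 3.13) in cluster 8 alone. Its order between the pooled main classes thus differed between the libraries, with neutrophil-like cells at 880 (835 to 927) and 757 (711 to 805) CPM. By cluster, neutrophil-like cluster 4 stood above macrophage-like clusters 2 and 8 in both libraries. The levels were 1600 against 748 and 300 for Smad3-WT. For Smad3-KO they were 1478 (1212 to 1784) against 1065 (903 to 1248) and 768, and the intervals of clusters 4 and 2 overlapped.

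Abca1 (ENSMUSG00000015243, chromosome 4, 53030787 to 53159895), the cholesterol exporter, stood at 113 CPM (517 UMIs) in the Smad3-WT and 332 (97 UMIs) in the Smad3-KO macrophage-like cells, a ratio of 2.93 (2.33 to 3.64). Its UMIs lay in 46.3% of Smad3-KO against 28.9% of Smad3-WT cells, and in 17.4% against 5.22% after thinning. Both clusters gave ratios past 2-fold, 3.32 (2.41 to 4.49) in cluster 2 and 2.54 (1.81 to 3.50) in cluster 8.

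Gpnmb (ENSMUSG00000029816, chromosome 6, 49036546 to 49070929), a glycoprotein of lysosomes and the cell surface, had the largest ratio in macrophage-like cells. It rested on 216 UMIs or 47.4 CPM (41.3 to 54.2) in the Smad3-WT library and 79 UMIs or 270 CPM (214 to 337) in the Smad3-KO library, which gave a ratio of 5.71 (4.35 to 7.42). Only 17 Smad3-KO cells held these UMIs, 26 of the 79 were in a single cell, and the top 10 cells held 89.9%. The shares of cells with a Gpnmb UMI were 8.14% (6.59 to 9.92) and 14.0% (8.40 to 21.5) at median depths of 3380 and 1967 UMIs, and their intervals overlapped. At equal depth of 500 UMIs the shares were 2.47% (27 of 1093 cells) and 9.09% (11 of 121 cells).

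In all, 5 of the 10 genes were 2-fold or more higher in Smad3-KO macrophage-like cells (Apoe, Gpnmb, Fabp5, Lpl and Abca1), beside 11.9% of the 9194 genes with 20 or more UMIs in these cells. The 1 gene 2-fold or more lower was Spp1, beside 9.3% of genes. The median ratio of the 10 genes was 1.97 and that of all genes tested 1.09. The count depended on how the class was drawn: at the coarser resolution of 0.1, where 230 Smad3-KO and 1175 Smad3-WT cells took this name, 1 gene was higher (Gpnmb) and 3 lower (Trem2, Spp1 and Lgals3). Classes made from marker shares without clusters gave 3 higher (Apoe, Gpnmb and Abca1) and 1 lower (Spp1). The share over all genes was not computed for these other settings.

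**Figure D2:**
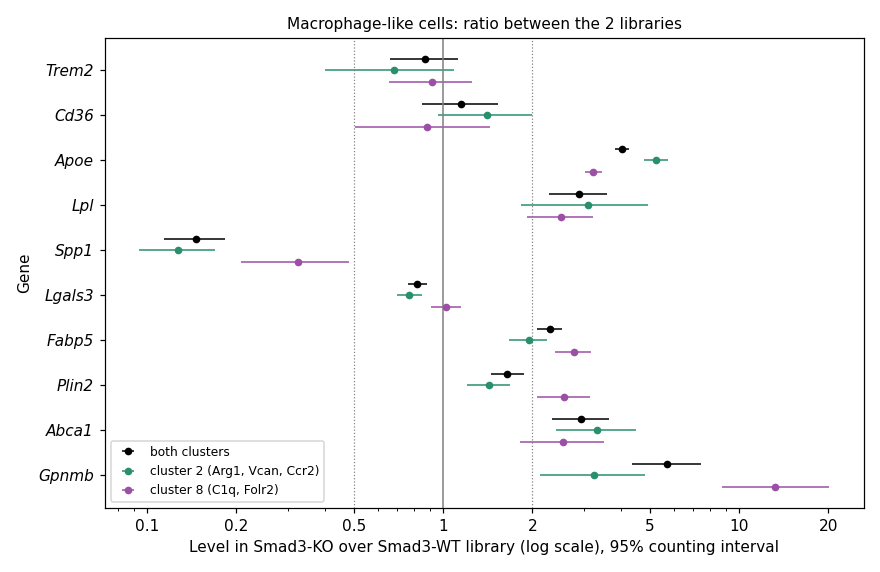
Ratio of the level in the Smad3-KO library over that in the Smad3-WT library on a log scale, for the 10 genes in all macrophage-like cells (black), in cluster 2 (green) and in cluster 8 (purple). Bars are 95% intervals of counting error, the solid line marks 1 and the dotted lines mark 2-fold, and Spp1 lies left of the lower dotted line while Apoe, Lpl, Abca1 and Gpnmb lie right of the upper one in all 3 groups of cells.

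For 7 of the 10 genes, most UMIs of the Smad3-KO macrophage-like cells lay in 21 cells. These 21 cells of 121 that held 6 or more of the 10 genes carried 22.3% of the UMIs of the class but 94.9% of Gpnmb, 86.9% of Trem2, 84.0% of Fabp5, 67.4% of Lpl, 67.1% of Spp1, 60.8% of Cd36 and 57.5% of Apoe UMIs. They carried 44.3% of Lgals3, 43.8% of Plin2 and 40.2% of Abca1 UMIs. Their median depth was 2671 UMIs against 1952.5 in the other 100 cells. In the Smad3-WT library 307 of 1093 cells held 6 or more, at a median of 5343 UMIs against 3011.5. These carried 40.8% of the UMIs of the class and, among the members, from 41.0% of Lgals3 to 86.6% of Gpnmb UMIs, with 77.9% of Cd36, 72.2% of Fabp5, 62.1% of Trem2, 61.2% of Apoe and 51.9% of Spp1. Since the cells were grouped by these genes, and at unequal depth in the libraries, the shares and the levels that follow are a description. Whether the libraries differ outside the 21 cells was not tested. Among cells with fewer of the genes, 100 in the Smad3-KO and 786 in the Smad3-WT library, Apoe was at 3145 against 941 CPM, Abca1 at 255 against 76.7 and Plin2 at 661 against 453. Gpnmb was at 17.6 against 10.7, Fabp5 at 313 in both, and Trem2 at 35.2 against 154.

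Markers of other cells moved with the libraries in this class. The 12 macrophage markers, all detected in both libraries, summed to 9748 CPM in Smad3-WT (6838 to 13575 over the 2 clusters) and 5071 in Smad3-KO macrophage-like cells (4441 to 5680). The neutrophil list, of which 12 of 13 were detected in Smad3-WT (Ngp at 0) and 10 of 13 in Smad3-KO cells (Ly6g, Ngp and Ltf at 0), summed to 5014 (4116 to 5698) and 6947 (5700 to 8235). T or NK markers summed to 22.6 (17.0 to 29.99, 10 of 10 detected) and 284 (125 to 438, 7 of 10 detected, with Klrb1c, Ncr1 and Gzma at 0). B cell markers summed to 4.61 (3.48 to 6.10, 2 of 9 detected, Ms4a1 among those at 0) and 116 (69.6 to 162, 7 of 9 detected, Igha and Jchain at 0). Dendritic markers summed to 78.6 (39.8 to 129.6, 10 of 10 detected) and 219 (76.6 to 357, 5 of 10 detected, Xcr1 and Clec9a among those at 0). The part of these cells in the ratios was not tested. Leaving out every cell with a lymphocyte marker UMI kept 1046 Smad3-WT and 89 Smad3-KO cells, in which Apoe, Gpnmb, Fabp5 and Abca1 were past 2-fold higher and Spp1 past 2-fold lower, and the ratio of Lpl was 1.91.

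In neutrophil-like cells, 7 of the 10 genes had the 20 UMIs needed for a ratio. Of these 1 was 2-fold or more higher in the Smad3-KO library (7.6% of the 6075 genes with enough UMIs were) and 0 were 2-fold or more lower (17.9% of genes were). Different clusters made up the class in the libraries. Cluster 1, led by Mmp9, Il1r2 and Cxcr2, held 1195 Smad3-WT and 131 Smad3-KO cells, while cluster 3, led by Il1a, Csf3, Stfa2 and Tnf, held 7 Smad3-WT and 756 Smad3-KO cells, and cluster 13, led by the granule genes Ngp, Camp and Ltf, held 70 Smad3-KO cells only. Cluster 4, led by the stress gene Ddit3, Hcar2 and Gadd45g, held 450 and 102 cells, and cluster 9, led by interferon-induced Ifit genes, 177 and 20.

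To set the neutrophil-like levels beside those that free RNA can give, each was divided by that in macrophage-like cells of the same library. In droplet libraries RNA from broken cells enters every droplet, and it carries all genes of 1 source in the same ratio. In the Smad3-WT library this quotient lay between 0.0147 and 0.350 for the 12 macrophage markers, with a median of 0.0269, and the highest of them were Adgre1 (0.350), Cd68 (0.324) and Csf1r (0.163). Trem2 (0.0256), Cd36 (0.0283), Apoe (0.0399) and Lpl (0.0544) lay below the marker Fcgr1 (0.0572). Of these only Trem2 lay below the marker median, and the interval of Apoe (0.0321 to 0.0489) lay wholly above it. Plin2 (1.59), Spp1 (1.47) and Abca1 (0.629) exceeded every marker, and Fabp5 (0.333), Lgals3 (0.304) and Gpnmb (0.117) lay within their upper range. The markers did not share 1 quotient, with C1qa, C1qb, C1qc and Pf4 between 0.0147 and 0.0191, so their upper range does not measure free RNA alone. Free RNA of other classes was not examined, such as carcinoma-like cells, which held 54.4% of Smad3-WT Gpnmb UMIs. In the Smad3-KO library Spp1 (5.49) and Plin2 (0.828) again exceeded every marker, whereas Trem2 (0.00362), Apoe (0.0114) and Lpl (0.0163) lay below the marker median of 0.02001. The intervals of the other 7 genes lay above that median, that of Cd36 (0.0520, 0.0252 to 0.0988) among them.

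**Figure D3:**
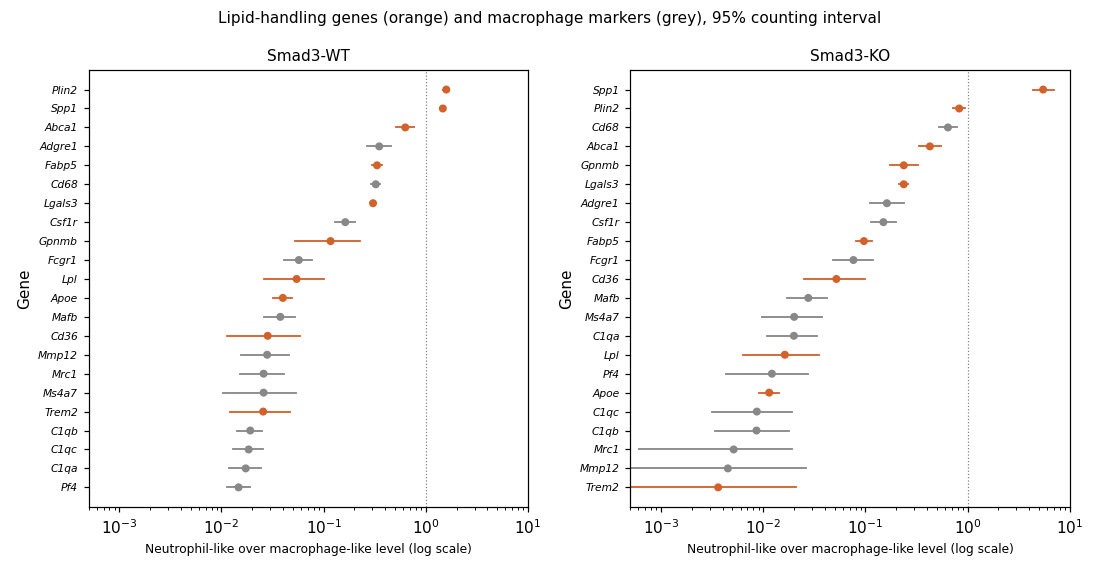
Level in neutrophil-like cells over that in macrophage-like cells of the same library, on a log scale, for the 10 genes (orange) and 12 macrophage markers (grey), sorted within each library, with 95% intervals of counting error. Spp1 and Plin2 stand at the top of both panels, and Trem2 stands below the marker median in both (0.0256 and 0.00362).

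Spp1 and Plin2 were abundant in neutrophil-like cells of both libraries. Spp1 stood at 2517 CPM in Smad3-WT neutrophil-like cells (4088 UMIs in 33.9% of cells) and 1372 in Smad3-KO cells (1815 UMIs in 31.5% of cells), a ratio of 0.545 (0.516 to 0.576). Among the neutrophil-like clusters the highest level was 4424 CPM, in Smad3-WT cells of cluster 4. Within cluster 4 the Smad3-KO level was 1054, a ratio of 0.238 (0.187 to 0.299), and within cluster 1 the levels were 2079 and 647, a ratio of 0.311 (0.238 to 0.400). The neutrophil markers of cluster 4 summed to 65359.6 CPM in the Smad3-WT and 28226.6 in the Smad3-KO library, and those of cluster 1 to 88805.7 and 150933, and their part in these ratios was not tested. Both within-cluster ratios were past 2-fold lower while that of the class was not, and cluster 3, almost wholly of Smad3-KO cells, held Spp1 at 1655.

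Neutrophil-like cells with a Spp1 UMI carried macrophage markers at 520 CPM in the Smad3-WT library, against 508 in those without, and 37 of 620 and 63 of 1209 cells held a C1q UMI. In the Smad3-KO library the macrophage markers stood at 536 and 478. Neutrophil markers summed to 81159 and 80012 CPM in the Smad3-WT cells with and without Spp1, and to 82237 and 122759 in the Smad3-KO cells.

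Plin2 was found in 53.2% of Smad3-KO neutrophil-like cells against 40.6% in the Smad3-WT library at median depths of 1016 and 741 UMIs, and 32.0% against 29.6% after thinning. The ratio of its level was 0.860 (0.793 to 0.933), and 1.02 with median-of-ratios scaling. Cluster 4 was again highest, at 1600 CPM for Smad3-WT and 1478 for Smad3-KO, with intervals that overlapped, and cluster 13 lowest at 207. Lgals3 and Fabp5 followed the same order within the Smad3-WT library, with cluster 4 at 1350 and 371 CPM and cluster 1 at 735 and 153. Over the class their ratios were 0.638 (0.585 to 0.697) and 0.665 (0.556 to 0.794).

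Abca1 had a ratio of 1.99 (1.57 to 2.53) in neutrophil-like cells, just inside the 2-fold limit, with 71.4 CPM in the Smad3-WT (116 UMIs) and 142 in the Smad3-KO library (188 UMIs). Its UMIs lay in 5.30% and 14.4% of cells, and in 3.01% and 6.86% after thinning. Within cluster 1 the ratio was 3.22 (1.90 to 5.23), and within cluster 4 it was 0.891 (0.306 to 2.14). All genes with enough UMIs had a median ratio of 0.802 in this class. The median-of-ratios scaling factor here was -0.25 on the log2 scale, and relative to it the Abca1 ratio was 2.36 and past 2-fold.

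The gene past 2-fold was Gpnmb. It gave 9 UMIs in 9 of 1829 Smad3-WT cells (5.54 CPM) and 85 UMIs in 44 of 1079 Smad3-KO cells (64.3 CPM), a ratio of 11.6 (5.83 to 26.2). Nearly all Smad3-KO UMIs came from clusters 3 and 4, with 43 UMIs in 24 of 756 and 41 UMIs in 19 of 102 cells. In cluster 4 this was 561 CPM (403 to 761) against 7.90 (1.63 to 23.1) from 3 UMIs in 450 Smad3-WT cells, a ratio of 71.0 (22.7 to 359). The Smad3-KO level in cluster 4 lay above that of Smad3-KO macrophage-like cells (270, 214 to 337). Smad3-KO neutrophil-like cells with a Gpnmb UMI carried macrophage markers at 909.7 CPM, against 479.7 in those without, and neutrophil markers at 56187 against 109990. A C1q UMI was found in 1 of these 44 cells. Within cluster 4 the macrophage markers summed to 876 in Smad3-KO and 647 in Smad3-WT cells, and the neutrophil markers to 28226.6 and 65359.6. The part of either in the result was not tested.

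**Figure D4:**
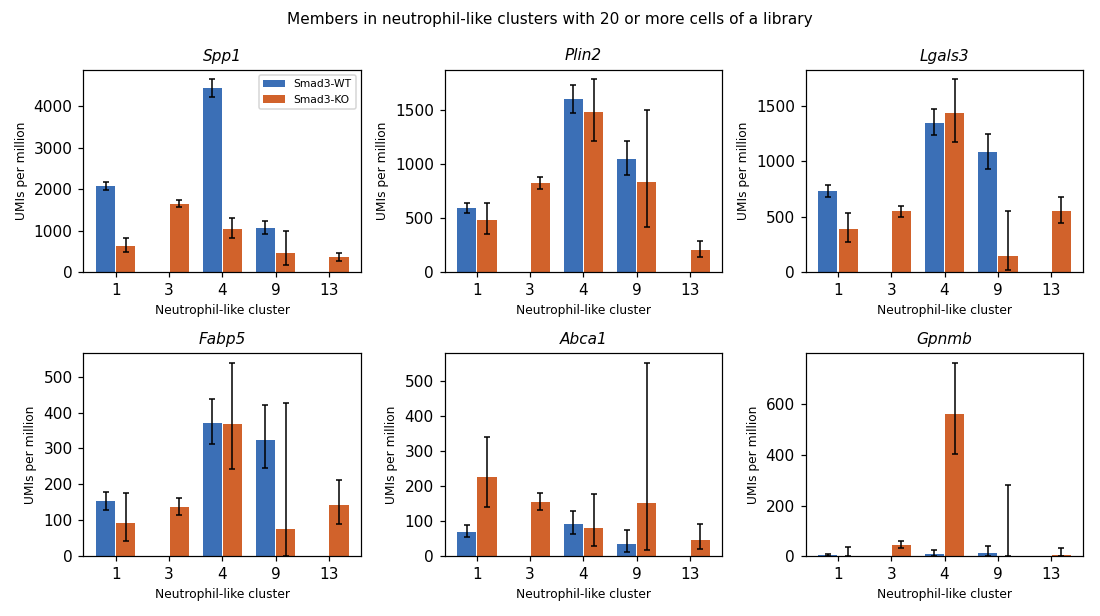
Levels of 6 of the genes in the neutrophil-like clusters, as CPM with 95% Poisson intervals, for clusters with 20 or more cells of a library (blue, Smad3-WT; orange, Smad3-KO). Cluster 4 is highest for Plin2 and Lgals3 in both libraries, for Spp1 in the Smad3-WT library and for Gpnmb in the Smad3-KO library, where it reaches 561 against at most 44.3 in the other clusters.

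For the sequence in front of these genes, the RefSeq promoters (GRCm38.p6) of the members were searched for 4 motifs on both strands over the 250 bases before the start. The table held 8 of the 10 genes, and Fabp5 and Lpl had no entry. The Smad box GTCTAGAC was in 0 of the 8 and in 0.167% of all 32851 promoters, and the AP-1 site TGAGTCA in 0 of the 8 and in 4.46% of all. The E-box CACGTG was in the promoter of Abca1 alone and in 6.02% of all, and the TATA box TATAAA in that of Abca1, that of 1 of the 2 starts listed for Spp1 and that of 1 of the alternative starts of Apoe, where 2 copies overlap, and in 12.4% of all. Where a letter run is missing, only the full run in this window was searched. Parts of a run, such as GTCT of the Smad box, were not counted. Below are the members with the lowest and the highest ratio in macrophage-like cells, Spp1 (chr5:104434861-104435110, plus strand) and Gpnmb (chr6:49036268-49036517, plus strand), and the exporter Abca1 (chr4:53159896-53160145, minus strand), each 5′ to 3′ with found motifs in capitals.
Spp1: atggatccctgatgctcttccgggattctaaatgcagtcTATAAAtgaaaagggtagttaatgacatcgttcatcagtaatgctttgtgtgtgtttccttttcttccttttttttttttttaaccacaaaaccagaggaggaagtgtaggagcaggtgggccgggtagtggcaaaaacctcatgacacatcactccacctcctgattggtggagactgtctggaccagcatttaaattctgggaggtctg
Gpnmb: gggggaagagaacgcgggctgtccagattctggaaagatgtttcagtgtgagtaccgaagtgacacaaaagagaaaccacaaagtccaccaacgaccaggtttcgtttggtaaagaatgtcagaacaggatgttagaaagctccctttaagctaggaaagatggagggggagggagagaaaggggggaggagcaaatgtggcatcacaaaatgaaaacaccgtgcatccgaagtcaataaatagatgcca
Abca1: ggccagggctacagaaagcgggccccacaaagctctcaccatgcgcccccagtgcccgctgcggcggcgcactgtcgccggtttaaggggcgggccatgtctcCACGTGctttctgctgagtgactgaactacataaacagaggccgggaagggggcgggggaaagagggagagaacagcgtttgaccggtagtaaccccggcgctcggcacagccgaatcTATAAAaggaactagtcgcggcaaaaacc
The capitals mark matches of letters, and their function was not tested. In Spp1 they are the letters of the TATA box 211 to 206 bases before the start. Gpnmb held none of the 4 motifs. In Abca1 they are an E-box 147 to 142 and a TATA box 29 to 24 bases before the start.

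Over all cells the ratios differed from those within macrophage-like cells. Macrophage-like cells were 31.1% (29.5 to 32.6) of Smad3-WT and 4.97% (4.14 to 5.91) of Smad3-KO cells, and they held 64.4% and 35.0% of all UMIs of the 10 genes. Of the 10, 0 were 2-fold or more higher over all cells of the Smad3-KO library (16.3% of 12612 genes were), and 4 were 2-fold or more lower (15.4% of genes were). These were Trem2 with a ratio of 0.163 (0.127 to 0.207), Lgals3 with 0.288 (0.275 to 0.302), Spp1 with 0.380 (0.363 to 0.397) and Cd36 with 0.414 (0.336 to 0.505). Apoe, 4.01-fold higher within macrophage-like cells, had a ratio of 0.977 (0.934 to 1.02) over all cells. These values depended on the cells kept: without a filter on cells the ratio of Apoe was 1.61, and Spp1 (0.501) and Cd36 (0.714) were not past 2-fold. The share of Spp1 UMIs that lay in macrophage-like cells went from 46.8% in the Smad3-WT to 3.38% in the Smad3-KO library, and that in neutrophil-like cells from 24.5% to 84.1%.

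The deposited averages of 13 clusters, made by the authors, also differed widely by cluster for these genes. A value here is the gene's UMIs per 1311 UMIs of the cluster, with no error given. Deposited clusters 5, 7 and 12 held the macrophage markers, at summed averages of 8.34, 13.7 and 8.67, and the next was deposited cluster 2 at 1.61. Apoe was highest in 12 (5.89), then 7 (2.46) and 5 (1.24). Trem2 was highest in 7 (0.365), Cd36 in 5 (0.218), Lgals3 in 5 (5.16) and Lpl in 7 (0.199). Abca1 and Gpnmb were highest in 12, at 0.389 and 0.124. Spp1 and Plin2 peaked in the neutrophil cluster 4 of the table, at 3.41 and 1.48, where B cell markers also summed to 5.95, and Fabp5 was highest in 13 (0.954), whose dendritic markers summed to 5.52, ahead of 7 (0.913) and 5 (0.871).

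**Figure D5:**
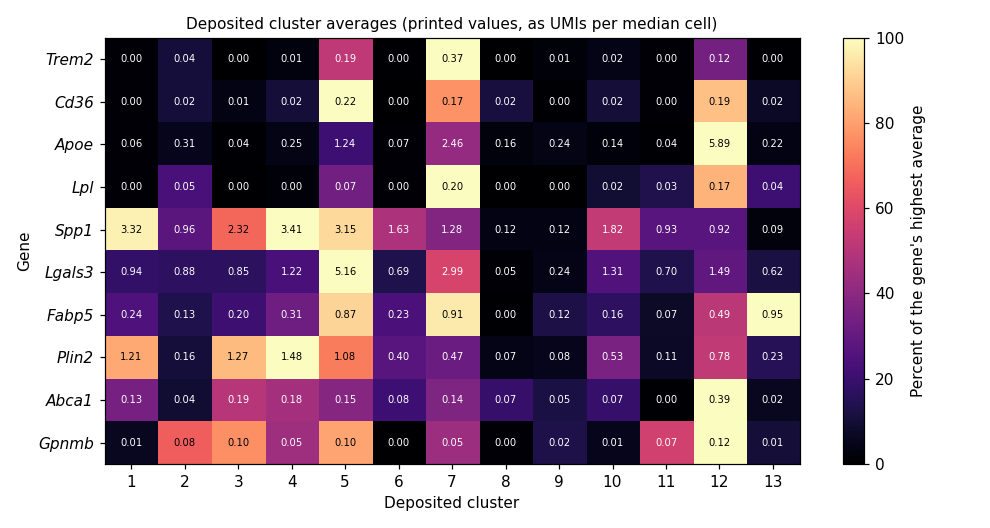
The authors' averages of the 10 genes in their 13 clusters, printed as UMIs per 1311 UMIs and coloured as percent of the gene's highest average. Trem2, Cd36, Apoe, Lpl and Lgals3 have their 3 highest averages in clusters 5, 7 and 12. The lowest of these can be close to other clusters, as for Lgals3 with 1.49 in 12 and 1.31 in 10. Spp1 and Plin2 have their 4 highest averages in clusters 1, 3, 4 and 5.

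Across the 13 averages (log2 of the average plus 0.01) the members were alike to differing degrees. Apoe with Cd36 gave a Pearson r of 0.905, Trem2 with Cd36 0.900 and Apoe with Trem2 0.881, while Spp1 with Plin2 gave 0.811 and Spp1 with Apoe -0.02. Lgals3 gave 0.712 with Trem2, 0.711 with Spp1, 0.706 with Plin2 and 0.822 with Fabp5, and Abca1 gave 0.734 with Plin2. The points are 13 clusters of 2 libraries and share their cells' depth, so these are descriptions. Among 4063 genes that reached an average of 0.1, the pattern most like that of Trem2 was C3ar1 (0.971), Pf4 (0.969) and Ccl12 (0.969). Apoe was most like Selenop (0.945), Nrp1 (0.943) and Sdc3 (0.941), Cd36 most like Lgmn (0.946), Mmp12 (0.943) and Ctsa (0.935), Lpl most like Grn (0.975), Olfm1 (0.966) and Rrbp1 (0.957), and Lgals3 most like Creg1 (0.940), Ifitm3 (0.929) and Rnh1 (0.899). Spp1 was most like the glycolysis genes Pkm (0.957) and Pgam1 (0.926) with P4hb (0.928) between them, and Plin2 most like Ifi204 (0.975), Ninj1 (0.968) and Fndc3a (0.959). Fabp5 was most like Ggh (0.891), Hpcal1 (0.880) and Atox1 (0.843), Abca1 most like Slc43a2 (0.924), Arap1 (0.919) and Ankrd37 (0.907), and among the genes most like Gpnmb were Tceal9 (0.870) and Mfsd1 (0.870).

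The other genes of lipid handling in macrophage-like cells were read from 7 lists, at the main setting only. Of all 9194 genes tested in these cells, 11.9% were 2-fold or more higher in the Smad3-KO library and 9.3% lower. Among sterol efflux genes and targets of the sterol receptor LXR, 10 of 11 had enough UMIs, 5 were 2-fold or more higher in the Smad3-KO library and 1 lower, with a median ratio of 1.92. Abcg1, which works beside Abca1, stood at 39.7 CPM in the Smad3-WT and 205 in the Smad3-KO library, which gave a ratio of 5.17 (3.80 to 6.96). Mylip, a ubiquitin ligase induced by LXR, had a ratio of 7.65 (4.54 to 12.6) and Apoc1, an apolipoprotein encoded beside Apoe, 25.2 (12.0 to 54.8) from 13 and 21 UMIs. Srebf1 (0.953, 0.403 to 1.93) and Nr1h2 (0.640, 0.346 to 1.09) had intervals that spanned 1, and Ch25h, at 0.279 (0.00693 to 1.62), rested on 56 and 1 UMIs.

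Genes of cholesterol synthesis lay on the other side. Of 14, 13 had enough UMIs, 0 were 2-fold or more higher and 11 were 2-fold or more lower, with a median ratio of 0.327. Of all genes tested in macrophage-like cells 11.9% were higher and 9.3% lower. Like the other lists, this one was read at the main setting only. Fdps had a ratio of 0.186 (0.0505 to 0.481) from 335 and 4 UMIs and Idi1 0.143 (0.00359 to 0.814) from 109 and 1. Counts in the Smad3-KO cells were small throughout, and the intervals of Sqle (0.184, 0.00459 to 1.05) and Fdft1 (0.439, 0.118 to 1.15) reached past 1. In neutrophil-like cells 7 of these genes had enough UMIs, with 1 higher, 2 lower and a median ratio of 1.005. Over the same cells the efflux list had 3 of 7 higher, 0 lower and a median of 1.49. Of all genes tested in this class 7.6% were higher and 17.9% lower, with a median of 0.802.

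Of the uptake receptors and transporters, 1 of 10 with enough UMIs was higher in Smad3-KO macrophage-like cells and 2 lower, beside 11.9% and 9.3% of all genes. The scavenger receptor Msr1 was among the lower ones, at 0.429 (0.305 to 0.587), while Stab1 had 0.565 (0.399 to 0.777), Slc27a1 1.75 (1.08 to 2.70) and Slc27a4 1.53 (0.772 to 2.78). The higher one, Marco, rested on 20 and 4 UMIs, with a ratio of 3.12 (0.775 to 9.31).

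For fatty acid binding, droplet storage and lipolysis 3 of 14 were higher and 0 lower, beside 11.9% and 9.3% of all genes. The higher ones were Fabp4, another fatty acid carrier, at 6.79 (4.16 to 10.8), the triglyceride synthase Dgat2 at 3.57 (1.67 to 6.98) and Acsl1, which activates fatty acids, at 2.25 (1.16 to 4.05). G0s2, an inhibitor of lipolysis, had 0.765 (0.622 to 0.933), Plin3 0.607 (0.288 to 1.13) and Abhd5 0.734 (0.196 to 1.95).

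Lysosomal genes and their regulators gave 3 of 16 higher and 1 lower, beside 11.9% and 9.3% of all genes, with a median ratio of 1.0005. Among the higher ones were the lipase Lipa (2.37, 1.67 to 3.28) and the factor Tfeb (2.85, 1.53 to 4.99), and the lower one was Tfec (0.285, 0.0769 to 0.740). Mitf had 0.596 (0.294 to 1.08) and Smpd1 0.578 (0.0682 to 2.19). Of PPAR factors and fatty acid oxidation genes 2 of 9 were higher and 1 lower, beside the same shares of all genes. Pparg had 24 UMIs in all, with a ratio of 3.12 (0.775 to 9.31), Ppargc1b 4.93 (1.61 to 12.8) and Cpt1a 1.61 (0.810 to 2.93), while Hadha stood at 0.994 (0.560 to 1.65), Hadhb at 0.716 (0.338 to 1.34) and Cpt2, the lower one, rested on 38 and 1 UMIs.

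Among 12 genes of Trem2 signalling or often seen with it, 2 were higher and 1 lower. The kinase Syk, which acts below Trem2, had a ratio of 2.52 (1.97 to 3.19) and the growth factor Igf1 7.59 (4.98 to 11.4), whereas Lgals1, encoding galectin-1, had 0.246 (0.211 to 0.285). Cd9 was at 0.555 (0.439 to 0.692), Cstb at 0.652 (0.580 to 0.731) and Itgax at 1.89 (1.05 to 3.19). For comparison, 11.9% of all genes were higher and 9.3% lower in these cells.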

How the data were processed

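Single-cell RNA was measured in 1 library of sorted TANs per genotype. The authors made the deposited UMI counts with Cell Ranger 3.0.2 per the file headers, and the submitters' notes name mm10. The authors' deposited averages per genotype are a signal, the UMIs summed over a library per 1311 UMIs, and served to recognize each library by equality of sums. Other deposited columns hold the authors' log2 fold changes and p-values, which were not used. The authors' averages of 13 clusters, on the same scale, were read as deposited.

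The members and lists were chosen with earlier results of these data known. The named genes were the 10 members, per list the 3 highest and 3 lowest ratios in macrophage-like cells among genes with 20 or more UMIs, and per member the 3 most alike deposited patterns (Pearson r, highest average at least 0.1). Clec7a of the lists was not used here. Some genes that this rule names are not reported here, though the counts and medians of the lists include them.

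The study's quality filter was applied, which asks for 200 genes or more, for 500 to 20000 UMIs with both ends left out, and for a mitochondrial share below 10%. Its further filter on the neutrophil markers S100a9, S100a8, Csf3r and Il1rn was not applied. Keeping cells with a UMI of any of these, 2899 Smad3-WT and 1605 Smad3-KO cells, was an alternative for the levels over all cells. The upper limit removed 382 Smad3-WT and 0 Smad3-KO barcodes. Counts were scaled and logged, and the kept cells clustered with scanpy 1.11.5 and igraph 0.11.9 (2000 variable genes without 103 member and list genes, 100 principal components, 15 neighbours, Louvain resolution 1). A cluster took the class with most markers past the rule, and at least 3, where a marker passes if found in 10% of its cells and 2-fold above the other cells. No doublet caller was used, and possible doublets were left out as an alternative. Levels in CPM are summed UMIs of a gene over the total of the same cells, with exact Poisson intervals for levels, Clopper-Pearson intervals for shares, and for ratios the interval of the split of UMIs between libraries. A side at 0 UMIs was set to a floor of 3 UMIs, and list medians used 0.5 added UMIs. No test was made between genotypes, since each has 1 library. The ratio script was tested on simulated data. Other software was matplotlib 3.10.9, pandas 2.3.3, scipy 1.17.1 and numpy 2.4.6 under Python 3.11.15. Gene positions are from GENCODE M21.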

Additional observations from a re-analysis of the deposited data

Results flagged for a closer look

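Fabp5 and Plin2 lay on opposite sides of 1 in the main cell classes, with intervals of counting error that did not reach 1. For Fabp5 the ratio of Smad3-KO over Smad3-WT was 2.29 in macrophage-like and 0.665 in neutrophil-like cells. For Plin2 it was 1.65 in macrophage-like and 0.860 in neutrophil-like cells, but the latter was 1.02 with median-of-ratios scaling and 1.03 in clusters 1, 4 and 9 alone, and at resolution 0.1 the former was 0.9503. Each genotype is 1 library, so the difference between the classes was not tested.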

How the results depend on the processing

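No paired analysis was possible because each genotype has 1 library. In macrophage-like cells 5 members were past 2-fold higher in the Smad3-KO library and 1 lower. At resolution 0.1, where 230 Smad3-KO cells took this name, 1 was higher and 3 lower (Trem2, Spp1 and Lgals3). Classes made from marker shares without clusters gave 3 higher, and 3-fold in place of 2-fold gave 2. The other 16 settings gave 4 to 6 higher and 18 gave 1 lower, which was Spp1. In 18 settings at 2-fold, Gpnmb and Spp1 passed it in all, Apoe and Abca1 in 17, Lpl in 14 and Fabp5 in 10, and no called ratio changed side. In neutrophil-like cells 1 member was higher. Without barcode filter, with all variable genes, at resolution 0.1, with another seed, as a mean over cells, with median-of-ratios scaling, in thinned cells and in clusters 1, 4 and 9 alone it was 2 (Gpnmb and Abca1), and with the MetaCell filter (500 UMIs or more, at most 20% mitochondrial) 3 (Apoe, Gpnmb and Abca1). In clusters 1, 4 and 9 alone 1 was lower (Spp1). Over all cells, 0 were higher and 4 lower. The MetaCell filter and no filter each gave 1 higher (Abca1) and 2 lower, and 3-fold gave 2 lower. The members highest in macrophage-like cells numbered 6 to 7 in the Smad3-WT and 6 to 8 in the Smad3-KO library over 13 settings. The causes were not tested. The share over all genes and the 7 lists of other lipid genes were computed at the main setting only. Leaving out cells with lymphocyte markers, the deepest cells, the highest cell of a member, shared barcodes or Smad3-KO carcinoma-like cells, and taking single clusters, were alternatives chosen after seeing the data. Smad3-KO macrophage-like cells hold 292075 UMIs against 4556309, so a count of 0 there allows a level of up to about 10.3 CPM (3 UMIs).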

Other observations

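Smad3-KO fibroblast-like cells (61) and Smad3-WT fibroblast-like cells (47) also differed in members. Lpl was 4.91-fold (3.21 to 7.80) and Apoe 1.94-fold (1.61 to 2.36) as high in the Smad3-KO library, while Spp1 had a ratio of 0.126 (0.0804 to 0.190), Fabp5 of 0.252 (0.136 to 0.443) and Lgals3 of 0.372 (0.294 to 0.468). Dendritic-like cells (86 and 101) had Lgals3 at a ratio of 0.222 (0.182 to 0.270), Fabp5 at 0.881 (0.715 to 1.08) and Apoe at 5.36 (2.89 to 10.7) from 13 and 56 UMIs, 37 of the latter in 1 cell. Fabp5 went from 1597 in Smad3-WT to 921 CPM in Smad3-KO cells of dendritic-like cluster 12, but from 86.6 to 177 in cluster 10. T or NK-like cells (65 and 459) had Spp1 at 0.0449 (0.0275 to 0.0699) and Lgals3 at 0.145 (0.118 to 0.177). Macrophage markers in Smad3-WT T or NK-like cells stood at a median of 0.339 of their level in macrophage-like cells, against 0.0537 in the Smad3-KO library, and at 0.365 and 0.0387 in fibroblast-like cells, and their part in these ratios was not tested.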
